A study of Mus musculus with 7 samples.

Results

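Cardiac fibroblasts traced from the Postn gene were compared with cardiac fibroblasts traced from the Tcf21 gene at each of the ages at which the latter had been sorted. A gene was described where both Postn libraries lay above, or both lay below, all 5 Tcf21 libraries in normalised CPM, the counts of a gene scaled to a common library size. Of 54735 gene symbols, 33172 had a count in at least 1 of the 7 libraries and 17636 had enough counts to be tested. Among the tested genes, 2193 (12.4%) lay above every Tcf21 library and 2371 (13.4%) lay below, 4564 in all. Another 930 symbols with too few counts to be tested met the rule as well, 773 above and 157 below.

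Bulk RNA sequencing had been run on green fluorescent cells sorted from hearts of pooled male and female mice. Postn P7 denotes 2 libraries of PostnMCM;R26eGFP mice aged 7 days, Tcf21 P7 denotes 2 libraries of Tcf21MCM;R26eGFP mice aged 7 days, and Tcf21 P30 denotes 3 libraries of the same Tcf21 genotype aged 30 days. All 3 groups carried MerCreMer (MCM), a recombinase switched on by tamoxifen, and the R26eGFP reporter. The recombinase was driven by Postn in one line and by Tcf21 in the other. A sorted cell, or its ancestor, had thus expressed the driver gene when tamoxifen was present. The sorted cell need not have expressed it at collection. The labels give no day of tamoxifen, and they do not say whether the libraries of a group came from separate animals, so the p-values measure only the spread between these libraries, which may be technical. Postn-traced cells had no library at 30 days, so lineage and age cannot be told apart in the comparison with Tcf21 P30. The comparison with the mean of both Tcf21 ages includes Tcf21 P30, so the same limit applies to every call against that mean.

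Periostin, the product of Postn, is a secreted matrix protein that fibroblasts make while a tissue is being built or repaired. Tcf21 is a transcription factor needed for cardiac fibroblasts to form from the epicardium, and most resident fibroblasts of the heart carry it. In the days after birth cardiac fibroblasts divide, lay down collagen and fibronectin and then settle into a quiescent state, while nerves and capillaries grow into the muscle around them.

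The libraries held 15207835 to 18519528 counts. The markers of the labelled cell type were present in all 7, with Pdgfra, the platelet-derived growth factor receptor of fibroblasts, at 659.9 and 816 CPM in Postn P7 against 853 to 1306 in the Tcf21 libraries. Dcn, the matrix proteoglycan decorin, stood at 2422 and 2983 and 3122 to 4557. The summed level of 16 endothelial markers was 4585 CPM in Tcf21 P30 replicate 1 and 1926 CPM in Postn P7 replicate 1, against 1124 to 1413 CPM in the other 5 libraries. With edgeR's quasi-likelihood test and Benjamini-Hochberg adjustment over all tested genes, a threshold of 0.05 called 1699 genes (9.63%) higher and 1544 (8.75%) lower in Postn P7 than the mean of both Tcf21 ages. Of the genes called against that mean, 818 had lineages that overlapped in the order of libraries. The shares 9.63% and 8.75% are the background for calls against that mean in the gene lists below. Against Tcf21 P7 alone 1149 (6.52%) were higher and 969 (5.49%) lower, and against Tcf21 P30 alone 2070 (11.7%) were higher and 2206 (12.5%) lower. The Tcf21 P7 libraries lay unusually close to each other, with a chi-square of their counts per degree of freedom of 3.43, against 18.4 for the Postn P7 libraries and 9.9 to 38.1 for pairs of Tcf21 P30 libraries. The calls against Tcf21 P7 rest on both, since 85 genes were higher and 33 lower without replicate 1, 80 and 31 without replicate 2, and 83 and 26 with the 2 summed to 1 library. This holds for every call against Tcf21 P7 given below. The order of the libraries and the test used the same counts, so the 53.8% of genes above and the 52.5% of genes below that were called are a description and not a second result. Leaving out a library takes away a condition of the order rule, so counts above and below then mostly grow, and their holding is no sign of stability. The exact permutation test of 2 against 5 libraries cannot give a two-sided p below 0.0952. Scaling by library total alone moved the all-gene median log2 difference to 0.116 and gave 3297 genes above and 1418 below, with 2526 called higher and 965 called lower.

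Neither gene that drove the recombinase separated the lineages. Postn had 2995 and 3695 CPM in Postn P7, 4258 and 4549 in Tcf21 P7 and 756, 907 and 821 in Tcf21 P30. The Postn P7 libraries thus lay between the ages of the Tcf21-traced cells. Tcf21 was at 343 and 428 CPM in Postn P7, 347 and 354 in Tcf21 P7 and 271, 391 and 352 in Tcf21 P30, and all groups overlapped. By edgeR's quasi-likelihood test the log2 difference of Postn was -0.40 ± 0.15 (SE) from Tcf21 P7 (adjusted p = 0.114) and 2.01 ± 0.13 from Tcf21 P30 (adjusted p = 4.64e-05). That of Tcf21 was 0.16 ± 0.15 from the mean of both ages (adjusted p = 0.493).

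The widest gap of all belonged to Esr1, the oestrogen receptor alpha gene (chromosome 10, 4611593 to 5005614 on GRCm38). It measured 3.65 and 2.75 CPM in Postn P7, 173 and 173 in Tcf21 P7 and 162, 225 and 208 in Tcf21 P30. Each Postn P7 library was far below each Tcf21 library, and the Tcf21 ages differed little beside that distance. The log2 difference from the mean of both ages was -5.84 ± 0.21 (edgeR's quasi-likelihood test, adjusted p = 4.14e-05). Part of MerCreMer derives from this receptor's ligand-binding domain, and counts per gene symbol do not separate transgene reads from those of Esr1. Of 17 steroid hormone receptors and targets tested, 1 (5.88%) lay above and 4 (23.5%) below, beside 12.4% and 13.4% of all tested genes. Esr1 was among the 4 below, and none of the other list members came near its gap. Gper1, a membrane receptor for oestrogen, lay above at 9.04 and 9.48 against 0.824 to 4.8 CPM (adjusted p = 0.0683), and Thra, a thyroid hormone receptor, lay below at 107 and 106 against 119.6 to 137 CPM (adjusted p = 0.0341, both by edgeR's quasi-likelihood test).

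**Figure D1:**
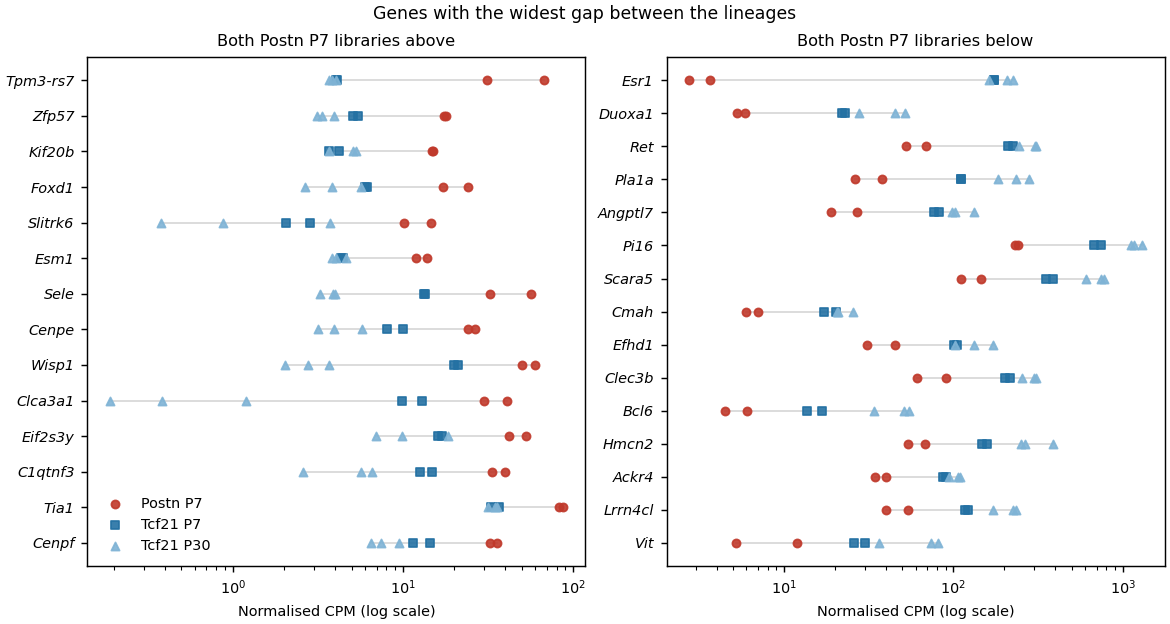
Normalised CPM (log scale) of the 14 genes with the widest gap above and the 15 with the widest gap below, 1 point per library. Only genes with every library of the higher lineage at 10 CPM or more were ranked, and provisional gene models were left out. Red circles are the 2 Postn P7 libraries, dark squares the 2 Tcf21 P7 libraries and light triangles the 3 Tcf21 P30 libraries, and the largest distance is that of Esr1, with 2.75 and 3.65 CPM in Postn P7 against 162 to 225 CPM.

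Above every Tcf21 library, the genes with the widest gaps included several that act on chromosomes and in cell division, several secreted or surface proteins, and 1 transcription factor. Tpm3-rs7, a sequence related to the tropomyosin gene Tpm3, had 31.4 and 67 CPM in Postn P7 against 3.66 to 4.1 in the Tcf21 libraries (3.63 ± 0.26 on the log2 scale, adjusted p = 0.000369 by edgeR's quasi-likelihood test). Reads of such a copy may be shared with Tpm3, so its level is uncertain. Zfp57, a zinc finger protein that keeps DNA methylation at imprinted control regions, was at 17.9 and 17.5 CPM in Postn P7, 5.46 and 5.08 in Tcf21 P7 and 3.34, 3.11 and 3.96 in Tcf21 P30. All 5 Tcf21 libraries lay far below both Postn P7 libraries, and the 30-day libraries were the lowest.

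Foxd1, a forkhead transcription factor of stromal progenitors, measured 17.1 and 24 CPM in Postn P7, 6.02 and 6.17 in Tcf21 P7 and 2.65, 5.64 and 3.85 in Tcf21 P30. Its difference from the mean of both ages was 2.05 ± 0.26 on the log2 scale, with 1.75 from Tcf21 P7 and 2.34 from Tcf21 P30. Tia1, an RNA-binding protein of splicing and stress granules, showed a narrower but very even step, at 82.1 and 86.9 CPM in Postn P7 against 36.8 and 32.9 in Tcf21 P7 and 35.6, 31.6 and 34.5 in Tcf21 P30. The 5 Tcf21 libraries of Tia1 spanned a few CPM across both ages. The adjusted p from edgeR's quasi-likelihood test was 0.00212 for Foxd1 and 0.000292 for Tia1.

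Secreted and surface proteins formed the other part of that set. Wisp1, a matricellular protein induced by Wnt signals, had 59.9 and 50.2 CPM in Postn P7, 21.2 and 19.9 in Tcf21 P7 and 2.78, 2.03 and 3.68 in Tcf21 P30. C1qtnf3, a secreted relative of complement C1q, followed the same order with 33.6 and 39.7 CPM in Postn P7, 14.8 and 12.6 in Tcf21 P7 and 2.59, 6.6 and 5.66 in Tcf21 P30. Sele, the adhesion receptor E-selectin, was at 32.6 and 56.3 CPM in Postn P7, 13.5 and 13.3 in Tcf21 P7 and 3.98, 3.23 and 3.9 in Tcf21 P30. Esm1, the secreted proteoglycan endocan, measured 13.8 and 12 CPM in Postn P7, 4.43 and 4.33 in Tcf21 P7 and 3.85, 4.06 and 4.62 in Tcf21 P30. Wisp1, C1qtnf3 and Sele were lowest in the 30-day libraries, whereas the Esm1 values of the Tcf21 ages overlapped. Sele and Esm1 are made by endothelial cells, and the part of such cells in their values was not tested. In Tcf21 P30 replicate 1, the library with the highest summed endothelial level, they stood at 3.98 CPM (Sele) and 3.85 CPM (Esm1). The difference from the mean of both ages was 2.85 ± 0.18 for Wisp1, 2.15 ± 0.28 for C1qtnf3, 2.65 ± 0.20 for Sele and 1.59 ± 0.16 for Esm1, with adjusted p of 0.000241, 0.00339, 0.000359 and 0.000986 in edgeR's quasi-likelihood test.

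Slitrk6, a membrane protein that promotes neurite growth and synapses, had 14.7 and 10.1 CPM in Postn P7, 2.05 and 2.83 in Tcf21 P7 and 3.72, 0.38 and 0.879 in Tcf21 P30. Its libraries did not overlap, but those at 30 days were widely spread. The call of 2.63 ± 0.66 (edgeR's quasi-likelihood test, adjusted p = 0.0422) was lost on leaving out either Postn P7 library (adjusted p of 0.184 and 0.13), either Tcf21 P7 library (0.162 and 0.143) or Tcf21 P30 replicate 3 (0.0769). Clca3a1, of the family of chloride channel regulators, had 41 and 29.98 CPM in Postn P7, 9.83 and 13 in Tcf21 P7 and 1.2, 0.19 and 0.385 in Tcf21 P30. Most of its distance lay between 7 and 30 days, with a difference of 1.64 ± 0.45 from Tcf21 P7 that missed the threshold (adjusted p = 0.0627) and 5.91 ± 0.51 from Tcf21 P30 (adjusted p = 0.000356, both by edgeR's quasi-likelihood test).

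Genes of mitosis and cytokinesis lay above as a group. Of the 30 in the list, all tested, 28 lay above every Tcf21 library and none below, against 12.4% and 13.4% of all tested genes. By edgeR's quasi-likelihood test 29 were called higher than the mean of both Tcf21 ages and none lower. The list's median difference was 1.38 on the log2 scale from the mean of both ages, 0.68 from Tcf21 P7 and 2.12 from Tcf21 P30, where the medians of all tested genes were 0.0061, 0.0021 and -0.011. Summed over the list, Postn P7 held 1180 and 1061 CPM, Tcf21 P7 held 751 and 728, and Tcf21 P30 held 256 to 291. The number above was 28 under each of the 3 other scalings tried, and 27 to 29 were called higher on leaving out any 1 library. The list is not independent evidence, since it was known from earlier results of these data that such genes differed.

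Kinesins and kinetochore proteins, which pull and sort chromosomes, had the widest gaps in that group. Cenpe, the kinetochore motor (chromosome 3, 135212537 to 135273611), was at 24.1 and 26.6 CPM in Postn P7, 9.95 and 8.08 in Tcf21 P7 and 3.91, 3.17 and 5.71 in Tcf21 P30. Cenpf, a large kinetochore protein (chromosome 1, 189640606 to 189688086), measured 32.5 and 35.7 CPM in Postn P7, 11.4 and 14.5 in Tcf21 P7 and 9.53, 6.47 and 7.42 in Tcf21 P30. In both genes the Postn P7 libraries were over 2-fold above the nearest Tcf21 library, and the 30-day libraries were lowest. The difference from Tcf21 P7 was 1.49 ± 0.26 for Cenpe (adjusted p = 0.0156) and 1.40 ± 0.21 for Cenpf (adjusted p = 0.00985), by edgeR's quasi-likelihood test.

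Kif20b, a kinesin of the dividing cell's midbody (chromosome 19, 34922361 to 34975745), had a different pattern over age. It had 15 and 14.9 CPM in Postn P7, 3.69 and 4.21 in Tcf21 P7 and 5.11, 3.68 and 5.28 in Tcf21 P30, so that the Tcf21 ages overlapped. Aspm, a spindle pole protein (chromosome 1, 139454772 to 139494091), was at 36.9 and 33.1 CPM in Postn P7, 15.6 and 16.9 in Tcf21 P7 and 6, 4.38 and 4.78 in Tcf21 P30, and Hmmr, a spindle assembly factor also known as a hyaluronan receptor (chromosome 11, 40701395 to 40733422), at 25.9 and 20.9 CPM in Postn P7, 8.81 and 10.9 in Tcf21 P7 and 5.36, 6.6 and 4.18 in Tcf21 P30. Hmmr was named here after its values were seen, for its promoter. Against Tcf21 P7, edgeR's quasi-likelihood test gave 1.91 ± 0.23 for Kif20b (adjusted p = 0.00546), 1.11 ± 0.17 for Aspm (adjusted p = 0.0113) and 1.25 ± 0.24 for Hmmr (adjusted p = 0.0189).

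The cyclin-dependent kinase gene Cdk1 and the checkpoint kinase gene Bub1 were the exceptions among the 30, and they are named after their values were seen. Cdk1 measured 51.1 and 37 CPM in Postn P7, 48.1 and 53.4 in Tcf21 P7 and 9.78, 7.55 and 7.09 in Tcf21 P30, so Postn P7 overlapped the Tcf21-traced cells of the same age. Bub1 had 14.2 and 5.25 CPM in Postn P7, 7.62 and 10.7 in Tcf21 P7 and 1.96, 1.4 and 4.89 in Tcf21 P30, and its Postn P7 libraries lay on either side of Tcf21 P7.

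**Figure D2:**
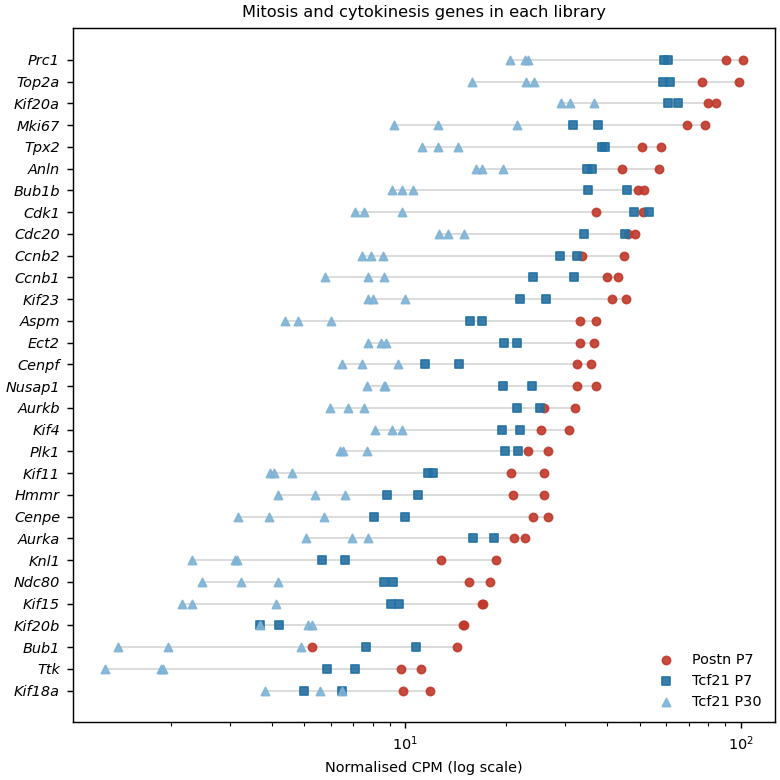
Normalised CPM (log scale) of the 30 genes of mitosis and cytokinesis in each library, ordered by Postn P7 replicate 1. The red circles of Postn P7 lie to the right of all Tcf21 symbols in 28 of 30 genes, and the light triangles of Tcf21 P30 lie farthest left in most.

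The genes that copy DNA differed less. Of the 30 genes of DNA replication tested, 4 (13.3%) lay above every Tcf21 library, near the 12.4% of all tested genes, and none below. In that list 12 were called higher than the mean of both Tcf21 ages and none lower. Their median difference was 0.46 from that mean but -0.018 from Tcf21 P7 and 1.07 from Tcf21 P30. Among the 4 were Ccne2, a cyclin that starts the S phase, at 24.1 and 19.98 CPM against 9.32 to 15.3, and Rfc2 and Rfc3, subunits of the clamp loader. Of 19 tested histone genes expressed with replication, none lay above and 4 (21.1%) below, beside 12.4% and 13.4% of all tested genes. The nearest libraries of the lineages differed by only 1.003-fold (Hist1h1c) to 1.07-fold (Hist1h4h) in those below. In that list 1 was called lower (Hist1h2bc, 15.1 and 14.9 CPM against 15.6 to 30.3), 1 was called higher, and the median was 0.40. Another 12 histone genes of the list were not tested. With library total alone, 8 replication genes lay above, and 2 histone genes lay above and none below. Of the replication genes 14 lay above when Postn P7 replicate 2 was left out and 9 when Tcf21 P7 replicate 1 was. The number called higher was 5 without Postn P7 replicate 1 and 7 without either Tcf21 P7 library.

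Promoters of mitotic genes often carry a cell-cycle homology region, a short element near the start site bound by complexes that repress these genes in resting cells. The letters TTTGAA or TTCGAA on either strand were searched in the RefSeq promoters of GRCm38.p6, 250 bases before to 50 after each start. Of the 28 mitotic genes above, 25 had such a promoter and 21 of these (84.0%) held the letters. They occurred in 16.5% of the 11818 tested genes that had a promoter, 19.6% of those of all genes above and 14.1% of those of all genes below. Restricted to 30 bases before to 50 after the start, the shares were 80% of the mitotic genes (20 of 25), 3.57% of tested genes, 6.79% of genes above and 2.75% of genes below. The letters CCAAT, on either strand, occurred in 72.0% of the mitotic genes' promoters and 42.2% of those of all tested genes. Both elements were chosen with the values known, and a match describes letters, not binding. The promoters of Cenpf, Aspm, Hmmr and Kif20b are printed as examples that hold the letters, and that of Cenpe, also described above, is not printed. The printed stretches run from 120 bases before to 30 after the start, 5′ to 3′ on the gene's own strand, with the matching letters in capitals. Their positions on GRCm38.p6 are chr1:189688057-189688206 on the minus strand, chr1:139454653-139454802 on the plus strand, chr11:40733408-40733557 on the minus strand and chr19:34922238-34922387 on the plus strand.
Cenpf: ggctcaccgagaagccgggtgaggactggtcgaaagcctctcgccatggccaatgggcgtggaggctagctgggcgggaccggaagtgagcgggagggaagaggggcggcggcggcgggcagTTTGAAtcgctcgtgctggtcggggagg
Aspm: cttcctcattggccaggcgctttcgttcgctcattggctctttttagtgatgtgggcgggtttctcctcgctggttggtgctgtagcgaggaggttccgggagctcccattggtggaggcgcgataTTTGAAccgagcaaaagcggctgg
Hmmr: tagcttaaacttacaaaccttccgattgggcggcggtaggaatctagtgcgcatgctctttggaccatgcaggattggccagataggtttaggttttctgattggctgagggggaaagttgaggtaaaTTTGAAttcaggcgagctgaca
Kif20b: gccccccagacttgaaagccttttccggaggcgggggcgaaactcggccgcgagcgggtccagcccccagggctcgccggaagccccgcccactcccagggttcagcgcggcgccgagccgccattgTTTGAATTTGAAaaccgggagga
In these 4 examples the capitals lie close to the start, and Kif20b has the element as 2 adjoining copies. The choice of examples fixed that they hold the letters.

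Wnt signalling directs growth and patterning of connective tissue through frizzled receptors and the Lef1 and Tcf7 transcription factors. Of the 30 pathway genes tested, 6 (20%) lay above every Tcf21 library and 3 (10%) below, beside 12.4% and 13.4% of all tested genes. By edgeR's quasi-likelihood test 8 were called higher and 2 lower than the mean of both Tcf21 ages. Of all tested genes 9.63% were called higher and 8.75% lower. The list's median was 0.28 from that mean, -0.092 from Tcf21 P7 and 0.53 from Tcf21 P30. With library total alone, 10 lay above and 1 below. The number called higher was 3 or 4 without any 1 of the 4 libraries of 7 days, and 10 lay above without Postn P7 replicate 1. The genes above with the widest gaps were all of low level. Rspo3, a secreted enhancer of Wnt signals, was at 2.54 and 2.43 CPM in Postn P7, 0.853 and 0.404 in Tcf21 P7 and 0.252, 0.317 and 0.55 in Tcf21 P30. Lef1 measured 4.02 and 3.97 CPM in Postn P7, 1.19 and 1.62 in Tcf21 P7 and 0.316, 0.698 and 0.385 in Tcf21 P30. Lgr5, the receptor for R-spondins, had 2.49 and 3.65 CPM in Postn P7, 1.19 and 1.04 in Tcf21 P7 and 0.694, 0.444 and 0.22 in Tcf21 P30. Each was over 2-fold above the nearest Tcf21 library, at levels of a few CPM. Against the mean of both ages the differences were 2.33 ± 0.41 for Rspo3 (adjusted p = 0.00855), 2.30 ± 0.33 for Lef1 (adjusted p = 0.00361) and 2.10 ± 0.40 for Lgr5 (adjusted p = 0.0111), by edgeR's quasi-likelihood test. The ligand Wnt16 was uneven, with 4.28 and 1.41 CPM in Postn P7 against 0 to 0.692 in the Tcf21 libraries (adjusted p = 0.0237 by the same edgeR quasi-likelihood test). The 3 below, named after their values were seen, were the secreted antagonists Frzb (79 and 87.4 CPM against 89 to 199) and Wif1 (21.4 and 25.5 against 27.6 to 54.5) and the receptor Fzd7 (61.1 and 56.4 against 64.1 to 88.3). Frzb (-0.66 ± 0.12, adjusted p = 0.00975) and Wif1 (-0.71 ± 0.10, adjusted p = 0.00359) were called and Fzd7 (adjusted p = 0.095) was not, in edgeR's quasi-likelihood test.

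Bone morphogenetic proteins (BMP) and transforming growth factor beta (TGF-beta) act through serine kinase receptors and Smad proteins. Of 31 genes tested, 6 (19.4%) lay above and 8 (25.8%) below, beside 12.4% and 13.4% of all tested genes. In that list 5 were called higher and 8 lower than the mean of both Tcf21 ages. On leaving out 1 library 3 to 5 were called higher and 4 to 9 lower, with 5 or fewer lower without any 1 of the 4 libraries of 7 days or Tcf21 P30 replicate 3. Gdf10, a BMP-related ligand also named BMP3B, was at 162 and 168 CPM in Postn P7, 110.1 and 103 in Tcf21 P7 and 25.1, 24.3 and 27.2 in Tcf21 P30. The Bmp6 ligand went the other way, at 126 and 132 CPM in Postn P7 against 219 and 219.5 in Tcf21 P7 and 189, 217 and 212 in Tcf21 P30. The receptor gene Bmpr1b was at 1.64 and 2.69 CPM against 0.227 to 0.866. Id4, a target of BMP signals, lay above at 59 and 58.1 CPM against 21.6 to 33.2. In Gdf10, Bmp6 and Id4 the libraries of a lineage at 7 days lay close together beside the distance between lineages. Their differences from Tcf21 P7 were 0.63 ± 0.10 (adjusted p = 0.0103), -0.77 ± 0.10 (adjusted p = 0.00597) and 0.85 ± 0.13 (adjusted p = 0.0107) by edgeR's quasi-likelihood test. In the Notch pathway 2 of 13 tested genes (15.4%) lay above and 1 (7.69%) below, near or under the shares of all tested genes. Without Postn P7 replicate 2 or Tcf21 P30 replicate 1 there were 4 above. The transcriptional repressor Hey2 lay above at 11.8 and 11.7 CPM against 2.8 to 5.46 (1.57 ± 0.30, adjusted p = 0.0109 by edgeR's quasi-likelihood test). Hey1 lay above without a call at 56.8 and 60.5 against 24.9 to 56.4 CPM, and Hes1 lay below at 71.2 and 64.9 against 78.9 to 93.9 CPM.

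Ligands that guide and feed nerve fibres were examined because sympathetic and sensory nerves reach the muscle at this age. Of the 32 tested, 5 lay above and 2 below, and 5 were called higher and 5 lower than the mean of both Tcf21 ages. The shares above and below, 15.6% and 6.25%, were near or under the background of all tested genes. Without Tcf21 P30 replicate 1 the number called higher was 11, and without Postn P7 replicate 1 the number called lower was 2. Bdnf, brain-derived neurotrophic factor, measured 3.81 and 3.14 CPM in Postn P7, 0.398 and 0.692 in Tcf21 P7 and 1.33, 1.65 and 1.32 in Tcf21 P30. It was the only one of the 5 above to be called (1.97 ± 0.30, adjusted p = 0.00508 by edgeR's quasi-likelihood test), at a low level. Ntn4, a laminin-related netrin, had 34.1 and 30.3 CPM in Postn P7, 53.7 and 57.4 in Tcf21 P7 and 201, 258 and 234 in Tcf21 P30. Sema3b, a secreted semaphorin, was at 23.4 and 23.8 CPM in Postn P7, 51 and 52.2 in Tcf21 P7 and 38.9, 46.2 and 48.2 in Tcf21 P30. Both were lower than in every Tcf21 library, with differences from Tcf21 P7 of -0.79 ± 0.13 for Ntn4 and -1.13 ± 0.13 for Sema3b on the log2 scale (adjusted p = 0.0141 and 0.00393 by edgeR's quasi-likelihood test).

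Receptors for the ligands of the glial cell line-derived neurotrophic factor (GDNF) family stood on opposite sides. Ret, the shared receptor tyrosine kinase (chromosome 6, 118151745 to 118197718), had one of the widest gaps below, at 52.5 and 68.5 CPM in Postn P7, 224 and 211 in Tcf21 P7 and 243, 309 and 302 in Tcf21 P30. Its co-receptors Gfra1, which prefers GDNF, and Gfra2, which prefers neurturin, were looked up after the Ret values were seen. Gfra1 measured 36.6 and 52.4 CPM in Postn P7, 88.4 and 106 in Tcf21 P7 and 128, 173 and 169 in Tcf21 P30. Gfra2 had 98.9 and 98.7 CPM in Postn P7, 66.6 and 66 in Tcf21 P7 and 18.4, 16.2 and 23.6 in Tcf21 P30. Ret and Gfra1 were thus lowest and Gfra2 highest in Postn P7, with no overlap between the lineages. Against the mean of both ages the differences were -2.04 ± 0.15 for Ret (adjusted p = 0.000355), -1.47 ± 0.19 for Gfra1 (adjusted p = 0.00297) and 1.46 ± 0.13 for Gfra2 (adjusted p = 0.000599), by edgeR's quasi-likelihood test. Gfra2 missed the threshold against Tcf21 P7 alone (0.58 ± 0.16, adjusted p = 0.0532 by the same edgeR test). Gdnf itself was near the detection limit, at 1.16 and 0.705 CPM in Postn P7 against 0 to 0.692 in the Tcf21 libraries.

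Long non-coding RNAs lay above in 6 of 37 tested genes (16.2%, near the 12.4% of all tested genes) and below in none, and 11 were called higher than the mean of both Tcf21 ages and none lower. The count above was 12 without Postn P7 replicate 1. The median of the list was 0.27 from that mean, 0.67 from Tcf21 P7 and 0.019 from Tcf21 P30. Dnm3os, the host RNA of a microRNA cluster in fibroblasts (chromosome 1, 162217623 to 162225550), was at 51.7 and 83.7 CPM in Postn P7, 6.54 and 6.29 in Tcf21 P7 and 25.6, 20.5 and 23.2 in Tcf21 P30. Here the Tcf21-traced cells of 7 days were the lowest and the Postn-traced cells of the same age the highest. The difference was 3.40 ± 0.24 from Tcf21 P7 (adjusted p = 0.00119) and 1.55 ± 0.20 from Tcf21 P30 (adjusted p = 0.00103), by edgeR's quasi-likelihood test. The gene lies antisense within Dnm3, and without a stated strand setting its reads cannot be told apart from those of Dnm3.

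In RefSeq (GRCm38.p6), 4 mature microRNAs lie within the Dnm3os interval, all on the plus strand, and they are printed because the host differed so widely at 7 days. Capitals mark the seed, bases 2 to 8, by which a microRNA pairs with its targets. Their positions are chr1:162217844-162217866, chr1:162217883-162217904, chr1:162223397-162223418 and chr1:162223438-162223459, in the order given.
mmu-miR-199a-5p: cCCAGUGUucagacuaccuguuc
mmu-miR-199a-3p: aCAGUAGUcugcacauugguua
mmu-miR-214-5p: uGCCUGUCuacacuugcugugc
mmu-miR-214-3p: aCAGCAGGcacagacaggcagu
The 4 seeds are all different. Levels of the mature microRNAs were not measured here.

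Imprinted genes, many of which promote fetal growth, lay above in 7 of 28 tested (25%) and below in 1 (3.57%). Of all tested genes 12.4% lay above and 13.4% below. Among the 28 imprinted genes 14 were called higher than the mean of both Tcf21 ages and 1 lower. Their median was 0.90 from that mean but -0.081 from Tcf21 P7 and 1.05 from Tcf21 P30. Without Postn P7 replicate 1 there were 11 above, and without Postn P7 replicate 2 the number called higher was 9. Nespas, an antisense transcript of the Gnas locus, measured 14.4 and 16.5 CPM in Postn P7, 6.48 and 6.87 in Tcf21 P7 and 0.631, 0.254 and 0.604 in Tcf21 P30. Airn, the antisense transcript of Igf2r, had 32.1 and 30.7 CPM in Postn P7, 19.9 and 19.6 in Tcf21 P7 and 20.7, 16.9 and 18.2 in Tcf21 P30. Nespas was under 1 CPM in the 30-day libraries, whereas the Airn values of the Tcf21 ages overlapped. The differences from Tcf21 P7 were 1.21 ± 0.28 (adjusted p = 0.033) and 0.67 ± 0.14 (adjusted p = 0.023) by edgeR's quasi-likelihood test. Both overlap a gene on the other strand, so the same limit applies as for Dnm3os. Usp29, a ubiquitin protease gene of the Peg3 locus, stood at 3.01 and 2.37 CPM against 0.0631 to 1.27 in the Tcf21 libraries. Mirg, a microRNA host of the Dlk1 locus, stood at 2.06 and 1.79 against 0.444 to 1.26 CPM. Mirg was not called (adjusted p = 0.104 by edgeR's quasi-likelihood test).

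Below every Tcf21 library, the clearest group was that of the universal or adventitial fibroblasts, which line vessels and serve as a reservoir of resting fibroblasts. Of the 20 list genes tested, 11 lay below and 1 above, against 13.4% and 12.4% of all tested genes, and edgeR's quasi-likelihood test called 11 lower and 1 higher than the mean of both Tcf21 ages. The list's median was -0.58 from that mean, -0.55 from Tcf21 P7 and -1.15 from Tcf21 P30. Scaled by library total alone, 10 lay below and 1 above. On leaving out 1 library 7 (without Postn P7 replicate 1) to 12 were called lower. Pi16, a peptidase inhibitor that marks these cells (chromosome 17, 29317680 to 29330593), was at 242 and 231 CPM in Postn P7, 680.1 and 747 in Tcf21 P7 and 1114, 1159 and 1297 in Tcf21 P30. Both Postn P7 libraries lay far below Tcf21 P7, and the Tcf21-traced cells were higher again at 30 days. The difference was -1.59 ± 0.12 from Tcf21 P7 (adjusted p = 0.00119) and -2.33 ± 0.11 from Tcf21 P30 (adjusted p = 1.67e-05) by edgeR's quasi-likelihood test.

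Clec3b, the plasminogen-binding protein tetranectin, measured 61 and 90.3 CPM in Postn P7, 201 and 215 in Tcf21 P7 and 253, 300.1 and 307 in Tcf21 P30. Dpp4, a cell surface peptidase of fibroblast progenitors, had 34 and 43.7 CPM in Postn P7, 85.3 and 94.5 in Tcf21 P7 and 87.8, 118 and 128 in Tcf21 P30. Efemp1, the elastic matrix protein fibulin-3, was at 10.2 and 6.79 CPM in Postn P7, 23.3 and 20.6 in Tcf21 P7 and 73.7, 96.6 and 98.6 in Tcf21 P30. All 3 were lower than in Tcf21-traced cells of either age, and Dpp4 differed little between the Tcf21 ages. Against Tcf21 P7 edgeR's quasi-likelihood test gave -1.46 ± 0.18 for Clec3b (adjusted p = 0.00602), -1.21 ± 0.19 for Dpp4 (adjusted p = 0.0125) and -1.37 ± 0.22 for Efemp1 (adjusted p = 0.0123). Creb5, a transcription factor and the 1 list member above, is named after its values were seen and stood at 143 and 166 CPM against 93.6 to 119.

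**Figure D3:**
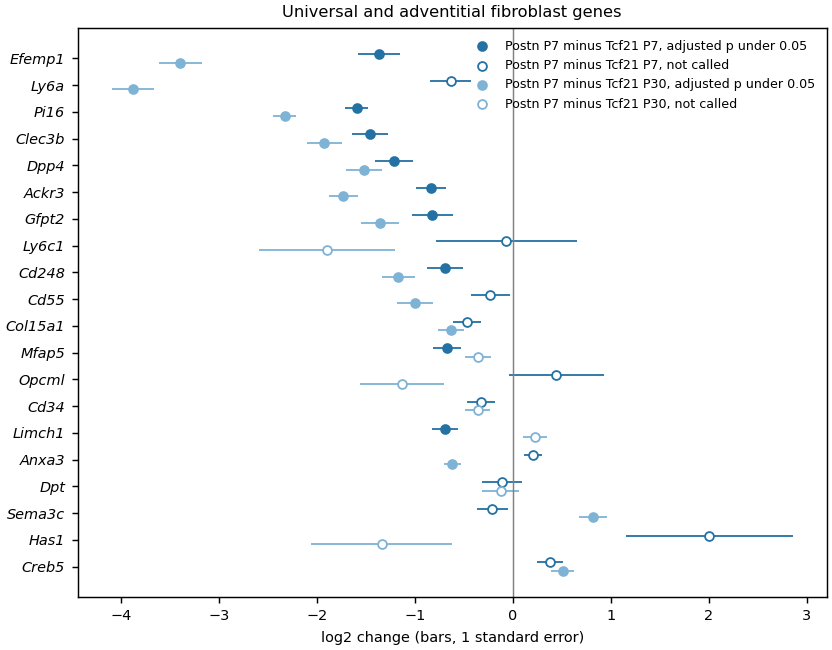
Log2 change of the 20 universal and adventitial fibroblast genes in Postn P7 against Tcf21 P7 (dark) and against Tcf21 P30 (light), with bars of 1 standard error and filled points where edgeR's adjusted p was under 0.05. Pi16, Clec3b, Dpp4 and Efemp1 lie left of 0 in both comparisons, with Efemp1 at -1.37 and -3.40.

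General fibroblast genes also lay below. Of 20 identity genes tested, 8 (40%) lay below and none above, beside 13.4% and 12.4% of all tested genes. The same number, 8, were called lower than the mean of both Tcf21 ages, with none higher. The list's median was -0.39 from that mean, -0.24 from Tcf21 P7 and -0.47 from Tcf21 P30. This count depended on scaling, as 4 lay below with library total alone. It also depended on single libraries, with 3 or 4 called lower without any 1 library other than Tcf21 P30 replicate 1, without which 11 were. Lamc1, a laminin chain, measured 2689.8 and 2813 CPM in Postn P7, 3901 and 3869 in Tcf21 P7 and 3155, 3752 and 3713 in Tcf21 P30. Serping1, the inhibitor of complement C1, had 517 and 741 CPM in Postn P7, 828 and 832 in Tcf21 P7 and 1681, 2184 and 1925 in Tcf21 P30, Thy1, a surface glycoprotein, at 8.41 and 7.24 against 11.5 to 17 CPM. Pdpn, podoplanin, stood at 11.3 and 12.9 against 16.3 to 23.7 CPM. Serping1 was highest at 30 days, and its difference from Tcf21 P7 (-0.40 ± 0.19, adjusted p = 0.192) missed the threshold in edgeR's quasi-likelihood test. In sorted bulk cells, fewer cells of a kind and less RNA of a gene per cell cannot be told apart.

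Among the other genes with the widest gaps below were surface receptors, enzymes and matrix proteins. Scara5, a scavenger receptor for ferritin, was at 110.4 and 145 CPM in Postn P7, 352 and 389 in Tcf21 P7 and 604, 742 and 774 in Tcf21 P30. Ackr4, a receptor that clears the chemokines CCL19 and CCL21, measured 39.9 and 34.7 CPM in Postn P7, 86.5 and 89.8 in Tcf21 P7 and 93.7, 106 and 109.7 in Tcf21 P30. Pla1a, a phospholipase acting on phosphatidylserine, had 26.3 and 37.9 CPM in Postn P7, 111 and 111 in Tcf21 P7 and 184, 278 and 235 in Tcf21 P30. The Tcf21-traced cells had more Scara5 and Pla1a at 30 days than at 7 days, and Ackr4 was nearly level over the 5 Tcf21 libraries. The differences from Tcf21 P7 were -1.54 ± 0.17, -1.24 ± 0.12 and -1.79 ± 0.23, with adjusted p of 0.00388, 0.00229 and 0.00694 in edgeR's quasi-likelihood test.

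Angptl7, a secreted angiopoietin-like protein, was at 18.9 and 26.8 CPM in Postn P7 against 76.6 to 132 in the Tcf21 libraries. Cmah, the enzyme that makes N-glycolylneuraminic acid, stood at 6.98 and 5.96 against 17.1 to 25.6 CPM. Duoxa1, which matures the dual oxidase enzyme, stood at 5.29 and 5.89 CPM against 22 to 51.4. Bcl6, a transcriptional repressor, measured 4.5 and 6.02 CPM in Postn P7, 16.8 and 13.7 in Tcf21 P7 and 51, 34.2 and 54.8 in Tcf21 P30. Bcl6 in Postn P7 was over 2-fold lower than in either Tcf21 library of the same age, and lower still beside the 30-day libraries. Efhd1, a calcium-binding protein of mitochondria, stood at 30.7 and 44.9 against 101 to 171 CPM. Lrrn4cl, a leucine-rich membrane protein, stood at 39.9 and 54.3 against 116 to 234 CPM. The differences of these 6 genes from the mean of both ages were -2.04 for Angptl7, -1.66 for Cmah, -2.45 for Duoxa1, -2.35 for Bcl6, -1.64 for Efhd1 and -1.75 for Lrrn4cl, all called by edgeR's quasi-likelihood test.

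Vit, the matrix protein vitrin, had 11.9 and 5.19 CPM in Postn P7, 25.9 and 30.2 in Tcf21 P7 and 74, 36.3 and 81.3 in Tcf21 P30. Hmcn2, the matrix protein hemicentin 2, was at 54.2 and 68 CPM in Postn P7, 148 and 159 in Tcf21 P7 and 249, 263 and 389 in Tcf21 P30. The call of Vit (-2.30 ± 0.49, adjusted p = 0.0297) was lost on leaving out any 1 of the 4 libraries of 7 days (adjusted p of 0.0516 to 0.121), whereas Hmcn2 had -1.82 ± 0.21 and an adjusted p of 0.00201, all by edgeR's quasi-likelihood test.

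Matrix genes lay on both sides, where 12.4% of all tested genes lay above and 13.4% below. Of 27 collagen genes tested, 3 (11.1%) lay above and 4 (14.8%) below, near the shares of all tested genes. In that list 4 were called higher and 6 lower than the mean of both Tcf21 ages. On leaving out any 1 of the 4 libraries of 7 days 3 were called lower. The number called higher was 1 without Postn P7 replicate 1 and 2 without Postn P7 replicate 2 or Tcf21 P7 replicate 1. Col5a3, a chain of fibril-forming collagen V, measured 323 and 334 CPM in Postn P7, 724 and 707 in Tcf21 P7 and 1164, 1451 and 1463 in Tcf21 P30. Col27a1, a fibrillar collagen of cartilage and bone, lay above at 29.9 and 27.2 against 13.7 to 22.2 CPM. Col6a5, a collagen VI chain, stood at 1 and 5.32 against 0.126 to 0.44 CPM with an uneven pair of Postn P7 libraries. Among the 23 elastic fibre genes tested 2 (8.7%) lay above and 7 (30.4%) below. In that list 3 were called higher, and the number called lower was 6. Without Tcf21 P30 replicate 1 that number was 12, and without Postn P7 replicate 1 or Tcf21 P7 replicate 1 it was 2. Emilin2, an elastic fibre glycoprotein, had 118 and 137 CPM in Postn P7 against 348 and 355 in Tcf21 P7 and 182, 252 and 239 in Tcf21 P30. Fbln2, fibulin-2, was at 953 and 1344 CPM in Postn P7, 1652 and 1631 in Tcf21 P7 and 2302, 3121 and 2679 in Tcf21 P30. The difference from the mean of both ages was -1.59 ± 0.12 for Col5a3 and -1.14 ± 0.14 for Emilin2 (adjusted p = 0.000397 and 0.00205 by edgeR's quasi-likelihood test).

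Among 29 tested proteoglycan genes 6 lay above and 6 below (20.7% each, beside 12.4% and 13.4% of all tested genes). Without Postn P7 replicate 2 there were 10 above. Prelp, a leucine-rich proteoglycan of basement membranes, measured 494 and 544 CPM in Postn P7, 857 and 847 in Tcf21 P7 and 1269.9, 1605 and 1499.9 in Tcf21 P30. Podn, podocan, had 17 and 12.3 CPM in Postn P7, 26.8 and 23.4 in Tcf21 P7 and 144, 154 and 179 in Tcf21 P30. Gpc1, a glypican of the cell surface, lay above at 58.8 and 42.7 against 26.4 to 35.9 CPM. Of 31 matrix proteases and inhibitors 3 (9.68%) lay above and 6 (19.4%) below, with 7 above without Postn P7 replicate 1. Adamtsl2 and Adamtsl3, which bind the fibrillin microfibrils or lie in the matrix near them, lay below at 97.5 and 119 against 228 to 877 CPM and 104 and 121 against 197 to 296 CPM. Mmp16, a membrane-bound metalloprotease, lay above at 134 and 168 CPM against 81.2 and 95 in Tcf21 P7 and 31.3, 36.9 and 46 in Tcf21 P30 (0.78 ± 0.19 from Tcf21 P7, adjusted p = 0.0391 by edgeR's quasi-likelihood test).

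Genes of developing or activated fibroblasts were split likewise, with 6 of 29 tested (20.7%) above and 5 (17.2%) below. Of all tested genes 12.4% lay above and 13.4% below. Without Postn P7 replicate 2 there were 8 of the list below. In the list 12 were called higher and 6 lower than the mean of both Tcf21 ages. Thbs4, thrombospondin-4, was at 112 and 73.5 CPM in Postn P7, 48.1 and 45.1 in Tcf21 P7 and 34.5, 33 and 30.1 in Tcf21 P30. Ddah1, which breaks down an inhibitor of nitric oxide synthesis, measured 67.5 and 64.6 CPM in Postn P7, 42.5 and 32.8 in Tcf21 P7 and 10.2, 11.4 and 11.8 in Tcf21 P30. Comp, cartilage oligomeric matrix protein, had 14.9 and 8.65 CPM in Postn P7, 28.6 and 24.8 in Tcf21 P7 and 130.4, 165 and 130.5 in Tcf21 P30. Thbs4 and Ddah1 were highest and Comp lowest in Postn P7, and Thbs4 and Comp belong to the same thrombospondin family. Against Tcf21 P7 the differences were 0.99 ± 0.18 for Thbs4 (adjusted p = 0.0179), 0.81 ± 0.14 for Ddah1 (adjusted p = 0.0157) and -1.18 ± 0.25 for Comp (adjusted p = 0.029) by edgeR's quasi-likelihood test. Integrins and other matrix receptors lay above in 5 of 20 (25%) and below in 3 (15%, or 5 genes without Postn P7 replicate 2). Itga8, an integrin chain that binds fibronectin and nephronectin, was at 165 and 159 CPM in Postn P7 against 138 and 139 in Tcf21 P7 and 70.2, 61.8 and 57.4 in Tcf21 P30.

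Genes of lipid handling and of the interferon response were counted next. Of all tested genes 12.4% lay above and 13.4% below. In lipid handling 6 of 22 tested genes (27.3%) lay below and none above. Of these 22, 7 were called lower and none higher than the mean of both Tcf21 ages. Without Postn P7 replicate 2 there were 13 below, and without either Tcf21 P7 library 4 were called lower. G0s2, an inhibitor of triglyceride breakdown, measured 30.9 and 29.7 CPM in Postn P7, 57.5 and 65.4 in Tcf21 P7 and 121, 150.0 and 136 in Tcf21 P30. Scd1, which desaturates fatty acids, had 35.6 and 36.1 CPM in Postn P7, 59.8 and 58.9 in Tcf21 P7 and 188, 232 and 217 in Tcf21 P30. Cebpa, a transcription factor of adipocytes, was at 4.55 and 4.55 CPM in Postn P7, 11 and 9.64 in Tcf21 P7 and 12.2, 12.8 and 15.8 in Tcf21 P30. All 3 were lower than in both Tcf21 ages, with log2 differences of -1.02, -0.73 and -1.18 from Tcf21 P7 (adjusted p = 0.0055, 0.0116 and 0.0136 by edgeR's quasi-likelihood test). Of 27 interferon response genes 5 (18.5%) lay below and none above. Of the 27, 14 were called lower and none higher than the mean of both ages, with a median of -0.97. Without Postn P7 replicate 1 the number called lower was 6, and without Postn P7 replicate 2 there were 17 below. The median was 0.055 from Tcf21 P7 and -1.77 from Tcf21 P30. Ifi27, an interferon-induced membrane protein, lay below both ages, at 59.1 and 60.7 CPM in Postn P7, 74.2 and 78.7 in Tcf21 P7 and 170.1, 192 and 175 in Tcf21 P30.

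Growth factors and transcription factors were counted in the same way, where 12.4% of all tested genes lay above and 13.4% below. Of 29 secreted growth factors tested 3 lay above and 5 below, with none called higher and 6 lower than the mean of both Tcf21 ages (2 or 3 without any 1 of the 4 libraries of 7 days). Fgf16, a fibroblast growth factor of the heart, measured 5.34 and 3.33 CPM in Postn P7, 8.18 and 10.4 in Tcf21 P7 and 10.9, 11.4 and 14.6 in Tcf21 P30. Vegfc, which drives growth of lymphatic vessels, stood at 43.4 and 37 against 49.1 to 63.9 CPM. Among 25 cardiogenic transcription factors tested 2 lay above and 1 below, and all 3 were called. On leaving out 1 library 3 to 7 lay above (7 without Tcf21 P30 replicate 1, 6 without Postn P7 replicate 1) and 1 to 4 below (4 without Postn P7 replicate 1). The number called higher was then 6 without Tcf21 P30 replicate 1 and 1 without any 1 of the 4 libraries of 7 days. The 1 called lower, Hand2, was no longer called without any 1 library other than Tcf21 P30 replicate 1. Snai2, a repressor active in mesenchymal transition, had 82 and 89.9 CPM in Postn P7, 59.7 and 57.6 in Tcf21 P7 and 38.8, 46.1 and 41.2 in Tcf21 P30. Hand2, a factor of heart development, stood at 12.6 and 10.1 CPM against 14 to 18.2. Both Snai2 libraries of Postn P7 were above and both Hand2 libraries below all others, with 0.79 ± 0.09 (adjusted p = 0.00161) and -0.51 ± 0.15 (adjusted p = 0.049) by edgeR's quasi-likelihood test. Of 28 immediate early and heat shock genes 1 lay above (Egr3) and 1 below (Hspb1), with none called higher and 2 lower. Leaving out Postn P7 replicate 1 gave 9 above and 6 called higher, and without Postn P7 replicate 2 there were 10 below and 5 called lower. Of 29 chemokine, cytokine and complement genes none lay above and 3 (10.3%) below, with 11 called lower (6 without either Tcf21 P7 library). Their median was 0.35 from Tcf21 P7 but -1.81 from Tcf21 P30. There were 11 below without Postn P7 replicate 2, and 6 below and 4 above without Postn P7 replicate 1.

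Markers of valve and tendon-like cells were split, with 4 of 16 (25%) above and 5 (31.2%) below, beside 12.4% and 13.4% of all tested genes. In that list 4 were called higher and 7 lower than the mean of both Tcf21 ages. Without Postn P7 replicate 1 there were 8 below, and without it or either Tcf21 P7 library 2 were called higher. Chad, the cartilage protein chondroadherin, was at 6.93 and 2.24 CPM in Postn P7, 9.32 and 11.2 in Tcf21 P7 and 29, 40.2 and 30.7 in Tcf21 P30. Its Postn P7 libraries were the lowest, and the difference from Tcf21 P7 missed the threshold (-1.14 ± 0.47, adjusted p = 0.157 by edgeR's quasi-likelihood test). Of Thbs4, Comp and Prelp, described above and also held by that list, the first lay above and the others below.

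**Figure D4:**
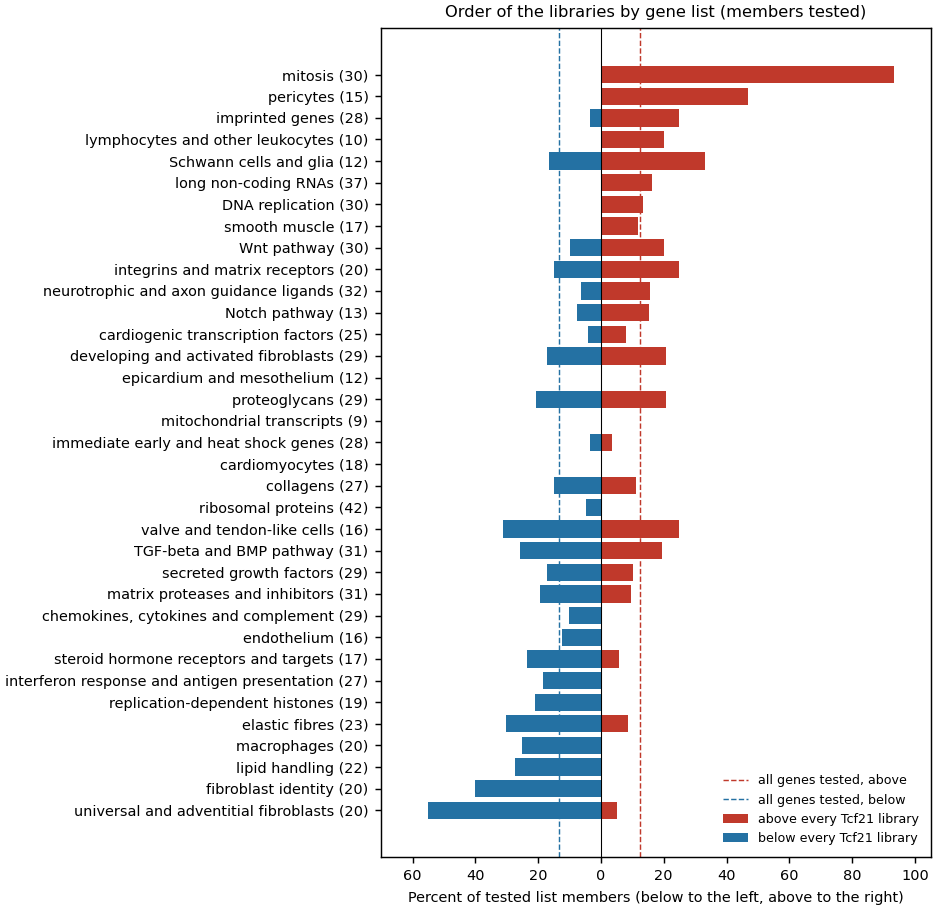
Percent of the tested members of each gene list with at least 9 such members that lay above (right, red) or below (left, blue) every Tcf21 library, with the number tested in brackets and dashed lines at the 12.4% and 13.4% of all tested genes. Mitosis reached 28 of 30 genes above and universal and adventitial fibroblasts 11 of 20 below. Other lists ranged widely, from collagens near both dashed lines (11.1% above, 14.8% below) to pericytes (46.7% above, none below).

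Markers of other cell types were examined in the same way. Of all tested genes 12.4% lay above and 13.4% below. Against the mean of both Tcf21 ages 9.63% were called higher and 8.75% lower. Of 15 pericyte markers tested 7 (46.7%) lay above and none below, and 2 were called higher. Enpep, an aminopeptidase of pericytes, measured 115 and 121 CPM in Postn P7, 21.4 and 23 in Tcf21 P7 and 66.1, 61.8 and 64.6 in Tcf21 P30 (1.65 ± 0.08 from the mean of both ages, adjusted p = 8.68e-05 by edgeR's quasi-likelihood test). Abcc9, a subunit of the potassium channel of mural cells, had 313 and 226 CPM in Postn P7, 103 and 89 in Tcf21 P7 and 161, 60.8 and 67.3 in Tcf21 P30 without a call (adjusted p = 0.066 in the same edgeR quasi-likelihood test). Summed over the 15, Postn P7 held 2712 and 2052 CPM, Tcf21 P7 held 1337 and 1256, and Tcf21 P30 held 2000.2, 1085 and 1153, so the 30-day library rich in endothelial transcripts came close to the Postn P7 libraries. Without the 2 libraries rich in endothelial transcripts, which leaves 1 Postn P7 library against 4, 12 pericyte markers lay above and 11 were called higher. Without Tcf21 P30 replicate 1 alone 13 lay above, and without Postn P7 replicate 2 alone 11. Of 17 smooth muscle markers 2 (11.8%, near the share of all tested genes) lay above and none below. In that list 2 were called higher, or 9 without Tcf21 P30 replicate 1. Carmn, a non-coding RNA of smooth muscle, stood at 27.8 and 17.7 CPM against 4.04 to 14.8, and no strand setting was given for it either.

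Macrophage markers were lower, with 5 of 20 below, none above and 11 called lower than the mean of both Tcf21 ages (6 without Postn P7 replicate 1, 7 without Tcf21 P7 replicate 1). Of all tested genes 12.4% lay above and 13.4% below, and 8.75% were called lower. Summed over the macrophage list, Postn P7 held 488 and 608 CPM, Tcf21 P7 held 1642 and 1650, and Tcf21 P30 held 553 to 853. Postn P7 thus overlapped Tcf21 P30 in the sum. Alox5, the leukotriene-forming lipoxygenase, was at 2.96 and 3.39 CPM in Postn P7 against 13.8 and 17.9 in Tcf21 P7 and 9.47, 7.48 and 7.8 in Tcf21 P30. Folr2, a folate receptor of resident macrophages, measured 3.44 and 3.65 CPM in Postn P7 against 18.1 and 20.1 in Tcf21 P7 and 14.3, 7.1 and 9.01 in Tcf21 P30. Markers of lymphocytes and other leukocytes went the other way in their sum, at 83 and 76.7 CPM in Postn P7 against 13.7 to 53.5. Of the 10 tested, 2 (20%) lay above and none below, and none was called against the mean of both Tcf21 ages. On leaving out 1 library 2 to 8 lay above. Among 12 tested Schwann cell and glial markers 4 lay above and 2 below, with summed levels of 97.3 and 122 CPM in Postn P7 against 90.4 to 145 over the Tcf21 libraries. Erbb3, the neuregulin receptor of Schwann cells, stood at 4.39 and 8.65 CPM against 0.714 to 2.27, and Fabp7, a fatty acid-binding protein of glia, at 5.08 and 4.55 against 0.385 to 1.26 CPM. Cnp, an enzyme of myelin, lay below at 45.6 and 51.8 CPM against 58 to 71 without a call against the mean of both Tcf21 ages, and Mbp, a myelin protein named after its values were seen, at 3.23 and 3.07 against 3.49 to 4.86 CPM. Of 12 epicardial markers none lay above or below and 1 was called higher, with a median of 1.75 from the mean of both Tcf21 ages. Of these 12, 10 lay above without Postn P7 replicate 2. Of 18 cardiomyocyte markers none lay above or below and 1 was called higher, but 5 lay above without Postn P7 replicate 2 and 6 lay below without Postn P7 replicate 1. Of 7 erythroid markers none lay above or below and none was called, but 6 lay below without Postn P7 replicate 1. The part of these cell types in the differences of other genes was not tested.

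Transcripts of the Y chromosome lay above in 4 of the 5 tested genes, beside 12.4% of all tested genes. Eif2s3y, a subunit of a translation initiation factor, had 41.9 and 53 CPM in Postn P7, 16.9 and 16 in Tcf21 P7 and 18.4, 6.98 and 9.89 in Tcf21 P30. Ddx3y, an RNA helicase, was at 70.3 and 97.1 CPM in Postn P7, 32.8 and 38.5 in Tcf21 P7 and 36, 13 and 17.5 in Tcf21 P30. Uty and Kdm5d, histone demethylase genes, lay above as well, at 24.6 and 30.9 against 3.49 to 13.7 CPM and 20.6 and 20.8 against 3.35 to 12.8 CPM. Xist, the X-linked RNA expressed in females and named after its values were seen, measured 69.4 and 29.1 CPM in Postn P7, 27.7 and 30.9 in Tcf21 P7 and 101, 83.8 and 119 in Tcf21 P30. Its libraries overlapped. The call of Eif2s3y (1.77 ± 0.33, adjusted p = 0.0157 by edgeR's quasi-likelihood test) was lost on leaving out any 1 of the 4 libraries of 7 days (adjusted p of 0.0623 to 0.103). The share of each sex in the pools is not given by the labels, and its part in these values was not tested.

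Genes above and below differed in gene span and type, which the rule did not use. The median gene span was 30.8 kb above, 13.6 kb below and 18.3 kb over all tested genes, by the GENCODE annotation of GRCm38. Among protein-coding genes split into 10 classes of span, the share lying above was 6.29% in the shortest, 18.6% in the ninth and 17.7% in the longest, while the share lying below dropped from 24.6% to 7.86%. Protein-coding genes made up 81.4% of genes above, 88.7% of genes below and 79.6% of tested genes. The X chromosome held 4.39% of genes above, 2.54% below and 3.18% of tested genes. By mean level, which comes from the same CPM values as the rule and is a description only, the share below was 4.08% under 1 CPM and 23.8% over 100 CPM, and the share above was 13.9% and 7.91%. Ribosomal protein genes, which are short and strongly expressed, had 2 of 42 (4.76%) below (Rpl13 and Rplp0) and none above. Of all tested genes 13.4% lay below and 12.4% above. The median of the ribosomal protein genes was -0.57 from Tcf21 P7, -0.072 from Tcf21 P30 and -0.32 from the mean of both. The count of ribosomal protein genes below was 20 without Postn P7 replicate 1 and 13 without Tcf21 P30 replicate 2. The number of them called lower was 5, but 0 without Postn P7 replicate 2, either Tcf21 P7 library or Tcf21 P30 replicate 3 and 9 without Tcf21 P30 replicate 2, by edgeR's quasi-likelihood test. The part of gene span in the group results was not tested.

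**Figure D5:**
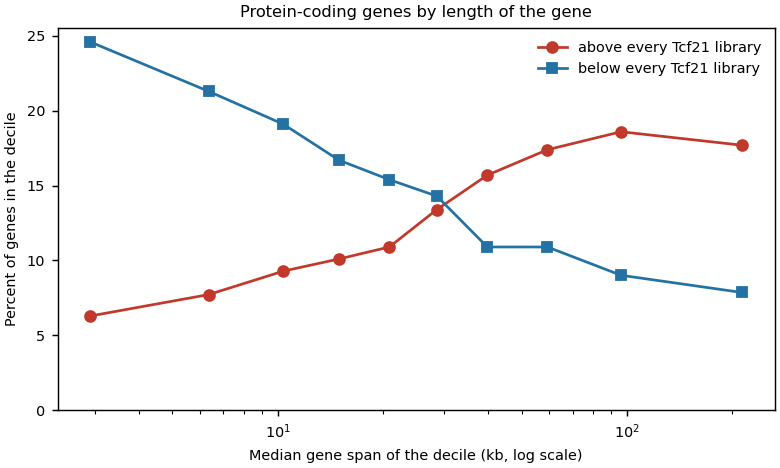
Percent of protein-coding genes above (red) and below (blue) every Tcf21 library in 10 equal classes of gene span, plotted at the median span of each class (kb, log scale). The share below dropped from 24.6% to 7.86% with span, and the share above was 6.29% in the shortest class and 17.7% in the longest.

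Most gaps were small. The nearest libraries of the lineages differed by a median of 1.14-fold in genes above and 1.1-fold in genes below, and by at least 2-fold in 104 and 45 genes. Within 10% of the boundary lay 898 genes above and 1158 below on the inside, and 1408 and 1545 on the outside. Phf21a, a component of a histone demethylase complex, sat just inside at 41.7 and 42.3 CPM in Postn P7 against 32.7 to 41.7 CPM, and Uggt1, a glucosyltransferase that checks glycoprotein folding, just inside on the other side at 158 and 171 CPM against 171 to 191 CPM. For such genes the gap was far smaller than the spread between libraries.

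A stricter view came from a fit with lineage as its only term, in which the 5 Tcf21 libraries form 1 group and their change with age counts as spread. It called 11 genes (2809 had an unadjusted p below 0.05), all of which were also called in the comparison with the mean of both ages. The 5 lower were Esr1, Islr2, Ackr4, Ret and H6pd, and the 6 higher were Tpm3-rs7, Tia1, Nr2f2, Map1b, Gria3 and Esm1. Islr2, H6pd, Nr2f2, Map1b and Gria3 are named after their values were seen. Islr2, a membrane protein that binds Ret in neurons, had 1.38 and 1.35 CPM in Postn P7, 8.24 and 11.4 in Tcf21 P7 and 9.47, 8.18 and 7.91 in Tcf21 P30. Nr2f2, the nuclear receptor COUP-TFII, was at 55.6 and 62.1 CPM in Postn P7, 24 and 23.7 in Tcf21 P7 and 28.2, 23.3 and 27 in Tcf21 P30. Both were level over the Tcf21 ages and apart in Postn P7, by -2.73 ± 0.26 for Islr2 and 1.22 ± 0.12 for Nr2f2 in that fit (adjusted p = 0.0412 for each by edgeR's quasi-likelihood test).

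Map1b, a microtubule-associated protein of growing axons, measured 247 and 247 CPM in Postn P7, 134 and 138 in Tcf21 P7 and 135, 123 and 118 in Tcf21 P30. Gria3, a glutamate receptor subunit, had 30.6 and 30.3 CPM in Postn P7, 13.5 and 14.9 in Tcf21 P7 and 13, 14 and 14.1 in Tcf21 P30. H6pd, a hexose phosphate dehydrogenase of the endoplasmic reticulum, was at 82.3 and 77.8 CPM in Postn P7, 169 and 177 in Tcf21 P7 and 148, 182 and 179 in Tcf21 P30. The Postn P7 libraries of Map1b and Gria3 were nearly equal and above every Tcf21 library, and those of H6pd were below. Ret and Ackr4 had -2.09 ± 0.22 and -1.38 ± 0.14 in the fit by lineage alone (adjusted p = 0.0412 for each by edgeR's quasi-likelihood test). None of the 30 mitotic genes was called in that fit (20 were higher at an unadjusted p below 0.05, lowest adjusted p = 0.0532), nor any of the 20 adventitial genes (11 lower and 1 higher at that p, lowest adjusted p = 0.0917, by edgeR's quasi-likelihood test).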

How the data were processed

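Green fluorescent heart cells were sorted and sequenced in bulk: 2 Postn P7, 2 Tcf21 P7 and 3 Tcf21 P30 libraries. The authors deposited 1 table of raw read counts per gene symbol. STAR and the genome build GRCm38 are named per the submitters' processing notes, and the STAR version, the counting tool, annotation and strand setting are not given in the sources used here. Counts were scaled with TMM factors, filtered with filterByExpr and fitted with edgeR 4.0.16 (R 4.3.3) as means of the 3 groups, tested by robust quasi-likelihood F-tests with Benjamini-Hochberg adjustment at 0.05. Depth was 15207835 to 18519528 counts a library. Genes are called above or below by the order of the 7 libraries in TMM-scaled CPM, and in the text a range after "against" runs over the 5 Tcf21 libraries. The gap is the log2 distance between the nearest libraries of the lineages with 0.5 CPM added. Named genes are Postn, Tcf21 and Esr1, the 15 widest gaps in each direction with every library of the higher lineage at 10 CPM or more and provisional gene models left out, and up to 4 genes of each of 38 lists with the widest gaps and the higher lineage at 1 CPM or more. Members and lists were chosen with earlier results of these data known. Gene positions are from GENCODE on GRCm38. The fit was tested on simulated data. Alternatives were DESeq2 1.42.0, other scalings, no filter, a replicate block, lineage as the only term, Tcf21 P7 summed, and leaving out libraries. Values of 2 named genes are not reported here.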

Additional observations from a re-analysis of the deposited data

How the results depend on the processing

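Scaling by library total alone, against which the reported scaling uses TMM factors, gave 965 genes lower than the mean of both Tcf21 ages, 1741 higher and 472 lower than Tcf21 P7, 2802 higher and 1725 lower than Tcf21 P30, and 3297 above and 1418 below every Tcf21 library. With upper-quartile factors 64.7% of the genes called against Tcf21 P7 were higher, beside 54.2% as reported. Without a filter on low counts 2113 genes were higher than Tcf21 P7, and a gap of at least 2-fold left 104 genes above and 45 below. The DESeq2 test called 1696 genes higher and 1603 lower than the mean of both ages. With the Tcf21 P7 libraries summed to 1, which assumes that the lone sample varies like the others, 827 genes were higher and 544 lower than the mean of both ages and 83 higher and 26 lower than Tcf21 P7. Lineage as the only term called 6 higher and 5 lower. Without Postn P7 replicate 1 and Tcf21 P30 replicate 1, an alternative chosen after seeing the data, 1982 genes were higher and 1768 lower than Tcf21 P7, and 4677 lay above and 4267 below. On leaving out 1 library, the genes higher than the mean of both ages numbered 670 (without Postn P7 replicate 2) to 2519 and those lower 535 (without Tcf21 P7 replicate 2) to 1923. Those higher than Tcf21 P7 numbered 80 (without Tcf21 P7 replicate 2) to 1811 and those lower 31 to 1439. Those higher than Tcf21 P30 numbered 1282 (without Postn P7 replicate 2) to 2658 and those lower 1366 (without Postn P7 replicate 1) to 2414. Each of these 6 highest counts came without Tcf21 P30 replicate 1. Genes above every Tcf21 library numbered 2527 to 4027 and genes below 2338 to 4069. The cause of these changes was not tested beyond the fewer libraries of each fit. Replicate numbers are shared between groups. Libraries with the same number correlated by 0.0475 to 0.385 in their deviations from the group means. Between groups, a replicate 1 and a replicate 2 correlated by -0.385 to -0.0475. At 7 days replicate 2 deviates as far as replicate 1 with the opposite sign, so the negative values only repeat the positive ones. These correlations cannot tell whether the numbers pair the libraries. The fit with the replicate block called 1343 higher and 1159 lower than the mean of both ages, 840 and 716 against Tcf21 P7 and 1611 and 1737 against Tcf21 P30. Of the 134 named genes, 107 lost their call with lineage as the only term, 11 with the block and 29 to 31 on leaving out any 1 of the 4 libraries of 7 days. Tcf21 itself, not called, ran from -0.015, a reversed sign, without Postn P7 replicate 2 to 0.31 without Postn P7 replicate 1.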
